A study of Mus musculus with 4 samples.

Results

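Interferon response genes are the genes that cells switch on when an interferon, a cytokine that signals viral infection, binds its receptor. The group described here holds 9 of them, Ifit1, Ifit2, Ifit3, Isg15, Irf7, Irf9, Stat2, Rsad2 and Usp18. Members were taken by name, as every probe set annotated to exactly 1 of these symbols, which gave 11 probe sets for 8 of the 9 genes, out of 22690 probe sets and 12393 genes on the array. Isg15 was represented only by a probe set annotated to a further gene as well, so no value is given for it. The study measured RNA of whole mouse lung at embryonic day 18 on 4 Affymetrix arrays. Of these, 2 came from Sftpc-Nmyc embryos and 2 from wild-type embryos, called normal in the source names, and the duplicates are biological replicates. The transgene is mouse Nmyc1 (now Mycn), a growth-promoting transcription factor, fused to the fluorescent protein EGFP and driven by 3.7 kb of promoter from human SFTPC, the surfactant protein C gene of the lung epithelium. The design text gives embryonic day 18.5 for the transgenic embryos and no finer time for wild type, and it describes pronuclear injection of F2 zygotes from C57BL/6J and DBA/2J. The strain of the wild-type embryos is not given in the sources used here. An embryo made in this way carries its own integration event, so the transgenic duplicates need not carry the same insertion.

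Type I interferons bind a receptor made of Ifnar1 and Ifnar2, whose kinases Jak1 and Tyk2 phosphorylate STAT2. STAT2 joins IRF9 in a complex called ISGF3, which binds an interferon-stimulated response element in the promoters of its targets. IRF7 amplifies the response by driving further interferon genes. Among the targets, IFIT proteins bind viral RNA, RSAD2 (viperin) makes a nucleotide that stops viral polymerases, ISG15 is a ubiquitin-like protein joined to other proteins, and USP18 removes ISG15 and also blocks the receptor. In tissue without infection these genes are read at a low basal level.

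Mycn, the misexpressed gene, had deposited signals of 455.2 and 356 in Sftpc-Nmyc lungs against 34.7 and 32.1 in wild-type lungs on its brightest probe set, so the transgene label and this reading go the same way. Its other probe sets differ: on one the signals were 25.1 and 27.2 in Sftpc-Nmyc lungs against 78.7 and 63.5 in wild type, and on the other the groups overlapped. Lung markers were present in both groups: 8 alveolar type II genes summed to between 6807 and 9214 in Sftpc-Nmyc lungs and between 30023 and 35076 in wild type. Array medians ran from 65.45 to 70.8. Control probe sets for Bacillus genes, 27 in number, reached at most 73.4, a rough mark for background. Xist, which is expressed from the inactive X chromosome of females, had 59.3 and 63.9 in Sftpc-Nmyc lungs against 1708 and 1506 in wild type, and Y-linked Eif2s3y had 58 and 61.7 against 3.1 and 0.8. An apparent difference in sex therefore cannot be told apart from genotype in any comparison below.

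The promoters are shown because the response element is the sequence through which ISGF3 reads its targets. RefSeq promoter windows of 300 bases, 250 before a transcript start and 50 after it, were found for 8 of the 9 members, all but Usp18. The windows were searched on both strands for GAAA, any 2 bases and GAAA again, the core of the response element. Capitals mark the matches, with TTTC in place of GAAA where they lie on the opposite strand. Rsad2 is shown as the member with the largest difference between the groups, Ifit1 as a target with a pair of matches and Irf7 as a member with none.
Rsad2 (GRCm38.p6, chr12:26456403-26456702, minus strand): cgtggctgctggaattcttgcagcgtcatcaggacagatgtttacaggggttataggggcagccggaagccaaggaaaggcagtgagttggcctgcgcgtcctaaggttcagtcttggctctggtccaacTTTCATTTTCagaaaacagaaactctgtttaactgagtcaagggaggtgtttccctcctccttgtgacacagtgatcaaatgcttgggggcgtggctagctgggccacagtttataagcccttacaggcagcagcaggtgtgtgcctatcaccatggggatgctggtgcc
Ifit1 (GRCm38.p6, chr19:34640639-34640938, plus strand): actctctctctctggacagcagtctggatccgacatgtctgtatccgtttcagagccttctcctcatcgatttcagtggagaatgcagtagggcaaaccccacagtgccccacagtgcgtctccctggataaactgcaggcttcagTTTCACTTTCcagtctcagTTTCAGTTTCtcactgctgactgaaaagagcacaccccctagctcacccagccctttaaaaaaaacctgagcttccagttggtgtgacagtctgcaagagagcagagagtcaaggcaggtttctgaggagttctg
Irf7 (GRCm38.p6, chr7:141266375-141266674, minus strand): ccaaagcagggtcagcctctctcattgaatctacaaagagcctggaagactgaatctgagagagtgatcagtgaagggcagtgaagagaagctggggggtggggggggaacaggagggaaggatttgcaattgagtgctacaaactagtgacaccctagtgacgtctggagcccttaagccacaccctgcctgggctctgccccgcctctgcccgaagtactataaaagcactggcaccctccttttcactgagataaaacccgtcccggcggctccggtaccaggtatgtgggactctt

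Of the 8 members with a window, 5 held at least 1 match, or 62.5%, against 3.99% of the 27025 genes with a window. Ifit1 and Ifit3 each held the same pair, GAAAGTGAAA and GAAACTGAAA. In Ifit1 these lay 104 to 95 and 85 to 76 bases before the start, and in Ifit3 at 156 to 147 and 122 to 113. Stat2 held GAAACTGAAA 222 to 213 bases before its start and Rsad2 held GAAAATGAAA at 120 to 111. Isg15 held 3 matches that overlap by their GAAA ends, GAAAAGGAAA, GAAACCGAAA and GAAACAGAAA, between 78 and 57 bases before the start. The windows of Ifit2, Irf7 and Irf9 held none, which says only that these letters are not in these windows. For TTCNNNGAA, the gamma-activated site, only Ifit2 had a match, TTCCTGGAA, in 1 of its windows, or 12.5% of members against 9.55% of all genes with a window. The matches are descriptions of sequence and were not tested for binding here.

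**Figure D1:**
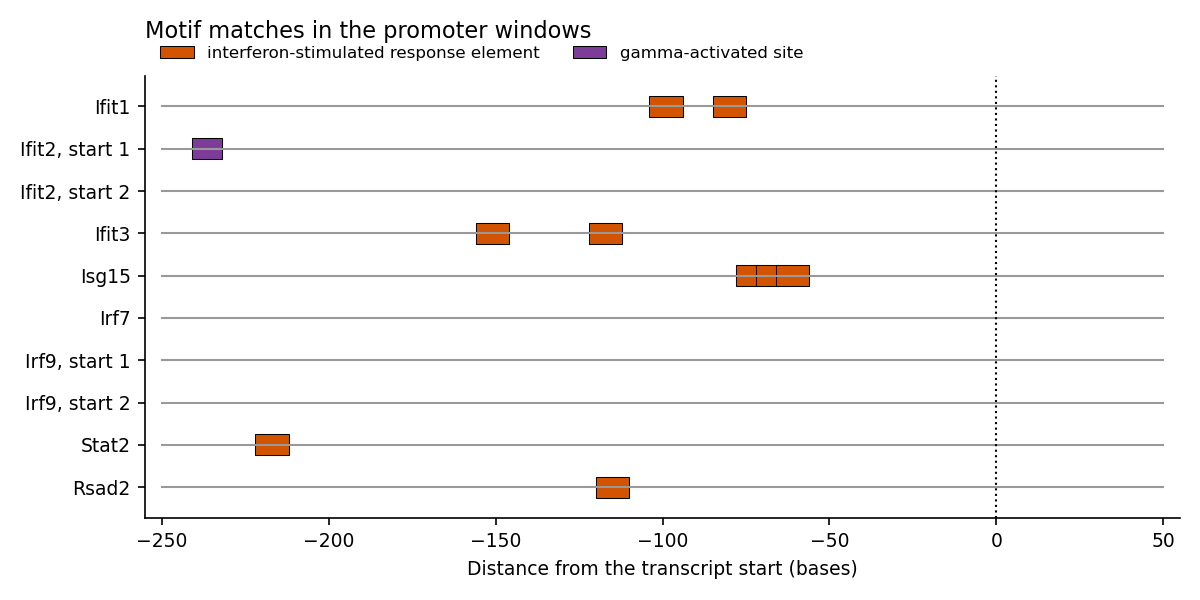
Position of motif matches in the promoter windows of 8 members, in bases from the transcript start (dotted line). Each grey line is 1 window, orange boxes are the response element core on either strand and the purple box is TTCNNNGAA, and all matches lie before the start, those of Isg15 nearest to it and that of Ifit2 farthest.

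In Sftpc-Nmyc lungs Rsad2, Usp18, Irf7 and Irf9 fell, and Stat2, Ifit1, Ifit2 and Ifit3 did not pass the test. With no filter on dim genes, these 4 of the 8 measured members were called lower and 0 higher (limma, adjusted p under 0.05, 0 higher also at an unadjusted p under 0.05), Irf7 by a narrow margin (limma adjusted p = 0.048). Over all 12393 genes in that fit, 8.42% were called lower and 8.28% higher. The median log2 fold change of the 8 members was -0.94, against -0.03 over all genes. Groups were apart with Sftpc-Nmyc lower for 6 of the 8, all but Ifit2 and Ifit3, against 31% of all genes. In whole lung, fewer cells that express a gene and less RNA of it per cell cannot be told apart, here or in what follows.

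After genes below the 30th percentile of mean level were left out, 5 members were tested and the same 4 were called lower. Over the 8675 genes tested 15.7% were called lower and 14.7% higher, and 34.8% had groups apart with Sftpc-Nmyc lower. Ifit1, Ifit2 and Ifit3 fell under that filter, and its use favours members that are bright in at least 1 group. Of the 11 member probe sets, in a fit of all 20380 with 1 symbol, 5 were called lower and 0 higher (limma, 0 higher also at an unadjusted p under 0.05), against 6.16% and 6.79% of all. Groups were apart with Sftpc-Nmyc lower for 8 of the 11, against 29.4% of all. The probe set calls are fragile: with any 1 array left out limma called 0 of the 20380, although 6 of the 11 were lower at an unadjusted p under 0.05 each time.

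Among the signal transducers, Irf9 and Irf7 were lower in Sftpc-Nmyc lungs and Stat2 did not pass the test. Irf9, the DNA-binding subunit of ISGF3, had deposited signals of 63.1 and 55.2 in Sftpc-Nmyc lungs and 136.9 and 123.8 in wild-type lungs. Both transgenic arrays lay below both wild-type arrays, and below the highest Bacillus control. Irf9 fell by 1.04 ± 0.20 (log2, SE, n = 2 per group), with an adjusted p of 0.0065 in limma's test over 8675 genes.

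Irf7, the amplifying factor, had signals of 29.7 and 47.1 in Sftpc-Nmyc lungs and 89.2 and 93.9 in wild type. The groups did not overlap, and the transgenic pair was spread more widely than the wild-type pair. Both transgenic readings lay below the highest Bacillus control. Irf7 fell by 1.11 ± 0.26 (limma adjusted p = 0.015). This call ended without Sftpc-Nmyc replicate 1 (-0.84, limma adjusted p = 0.063), without wild-type replicate 1 (-1.18, 0.062) and without wild-type replicate 2 (-1.06, 0.084), and also when all 20380 probe sets were tested together (limma adjusted p = 0.061).

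Stat2, the transactivating subunit of ISGF3, was read by 2 probe sets. Probe set 1450403_at had 48.7 and 48.2 in Sftpc-Nmyc lungs and 72.6 and 70.8 in wild type, with groups apart and every reading below the highest Bacillus control. Its log2 fold change of -0.44 ± 0.23 did not pass (limma adjusted p = 0.18, 95% interval -0.96 to 0.08). Probe set 1421911_at read 5.8 and 4.3 in Sftpc-Nmyc lungs against 24.3 and 2.9 in wild type, where the wild-type arrays lay on either side of the transgenic ones. It stood at -0.48 ± 0.63 (limma adjusted p = 0.67).

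Of the antiviral effectors, Rsad2 fell on all of its probe sets, while no IFIT gene passed. Probe set 1436058_at, the brightest for Rsad2, had 109.6 and 96 in Sftpc-Nmyc lungs and 282.7 and 456.4 in wild type, or 102.8 ± 9.62 against 369.6 ± 123 (SD, n = 2 per group). Rsad2 fell by 1.75 ± 0.23 (limma adjusted p = 0.0017), the largest difference among the members, and was called whichever array was left out (limma adjusted p = 0.0054 to 0.019). This was the only member probe set above the highest Bacillus control in the transgenic lungs.

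The other Rsad2 probe sets showed the same order of arrays. Probe set 1421008_at read 57.1 and 52.6 in Sftpc-Nmyc lungs against 125.2 and 191.2 in wild type, and 1421009_at read 47.9 and 47.4 against 111.4 and 178. They stood at -1.38 ± 0.26 and -1.43 ± 0.28 (limma adjusted p = 0.031 and 0.034 over all probe sets). On all 3 probe sets of Rsad2, wild-type replicate 2 was the highest array, whereas for Irf9 and Usp18 the highest was wild-type replicate 1. The wild-type lungs thus differed from each other in different directions for different members.

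The IFIT genes lie together on chromosome 19 (34550550 to 34650009 from Ifit2 to Ifit1, GRCm38.p6) and were dim on all arrays. Ifit1, which binds RNA lacking a host cap mark, had signals of 23.9 and 19.1 in Sftpc-Nmyc lungs and 40.7 and 50.7 in wild type. The groups were apart, but its log2 fold change of -0.84 ± 0.33 did not pass (limma adjusted p = 0.17 over all probe sets). Ifit2, an inducer of cell death in infected cells, read 34.1 and 30.4 in Sftpc-Nmyc lungs against 32.7 and 34.3 in wild type. Ifit3, a partner of Ifit1 in human cells, read 28.7 and 40.6 against 35.8 and 34.3. For both, the groups overlapped, with log2 fold changes of 0.05 ± 0.29 and 0.08 ± 0.30 (limma adjusted p = 0.93 and 0.90). Their 95% intervals, -0.69 to 0.80 for Ifit2 and -0.68 to 0.84 for Ifit3, exclude a difference of the size fitted for Rsad2. At signals this low, however, intervals on the log2(value + 5) scale understate what a true change could be. Under the deposited scaling alone both values changed sign, to -0.049 for Ifit2 and -0.031 for Ifit3. Ifit3b, a close relative of Ifit3, had no probe set of its own here, so whether the Ifit3 signal includes it is unknown.

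In the ISG15 system, Usp18 fell. Its signals were 66.7 and 56.9 in Sftpc-Nmyc lungs and 164.9 and 131.9 in wild type, or 61.8 ± 6.93 against 148 ± 23.3 (SD, n = 2 per group). Both transgenic readings lay below both wild-type readings and below the highest Bacillus control. Usp18 fell by 1.15 ± 0.20 (limma adjusted p = 0.0051) and was called whichever array was left out (0.012 to 0.041).

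**Figure D2:**
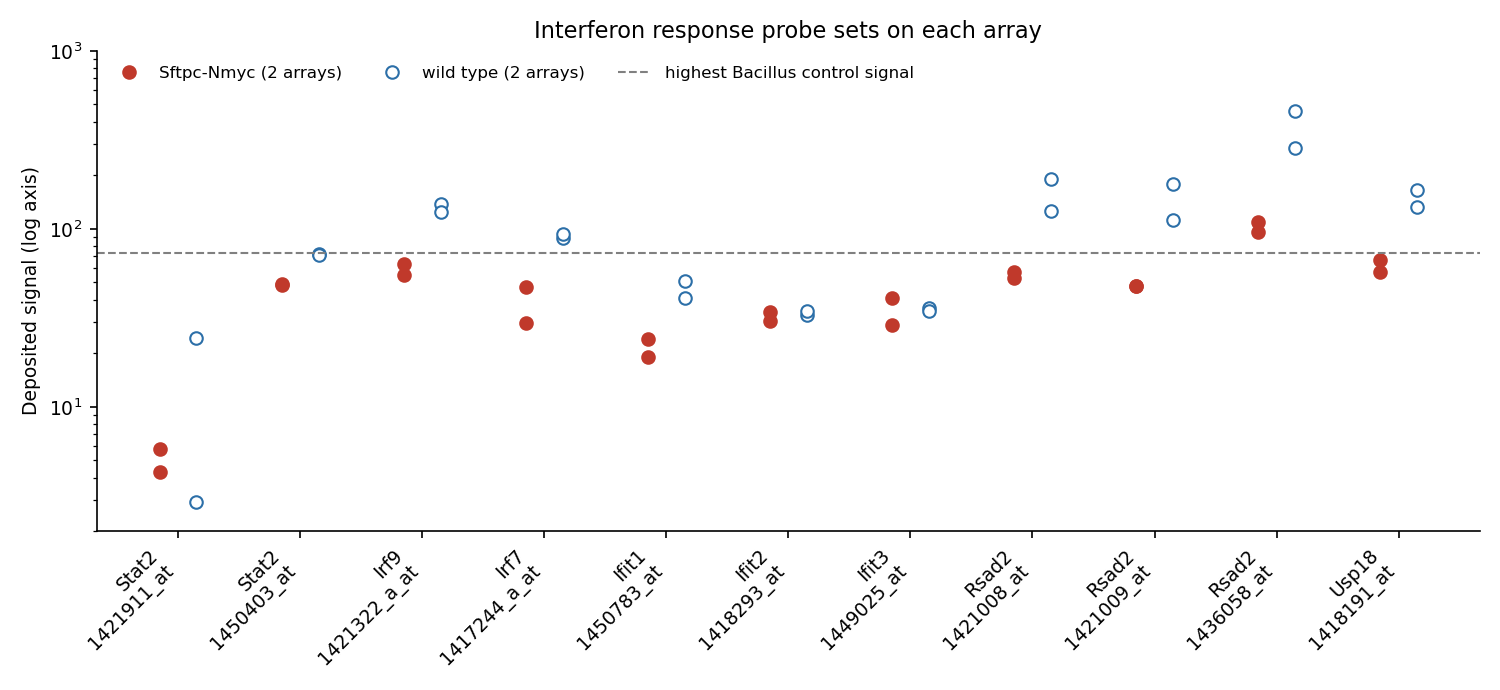
Deposited signal (log axis) of the 11 probe sets of 8 interferon response genes on each array, with Sftpc-Nmyc arrays as filled points and wild-type arrays as open points. The dashed line is the highest Bacillus control signal, 73.4; the groups are apart for Irf9, Irf7, Ifit1, Rsad2, Usp18 and Stat2 probe set 1450403_at, and overlap for Ifit2, Ifit3 and Stat2 probe set 1421911_at.

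**Figure D3:**
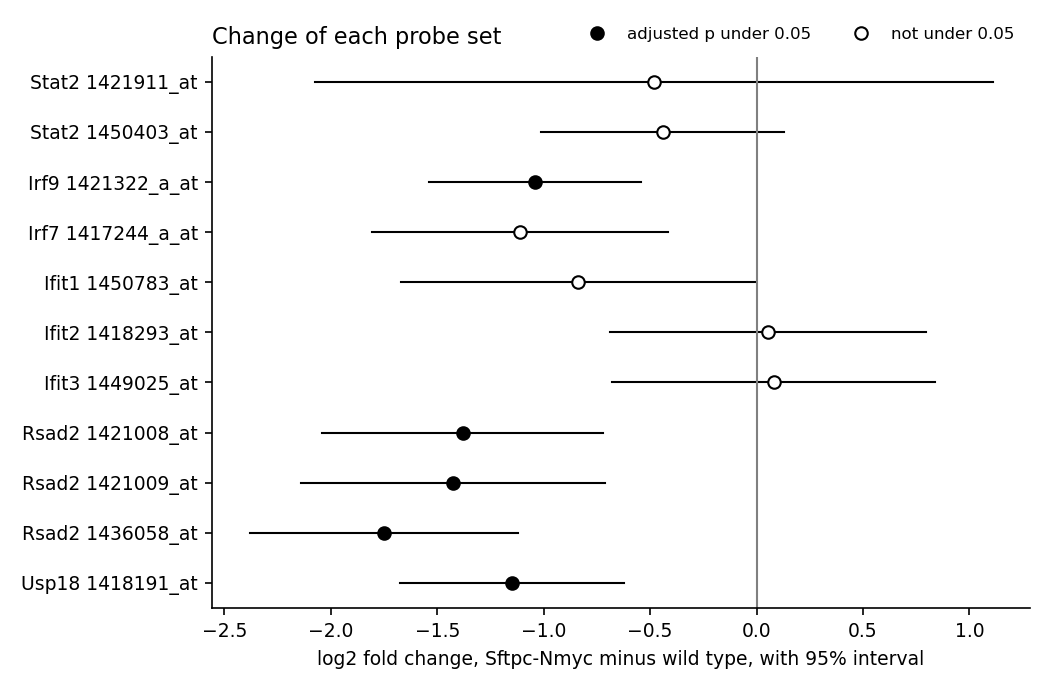
Log2 fold change, Sftpc-Nmyc minus wild type, of each member probe set with its 95% interval from the fit over all 20380 probe sets. Filled points passed at an adjusted p under 0.05: the 3 probe sets of Rsad2, with Usp18 and Irf9, all lie below -1, while Ifit2 and Ifit3 sit near 0.

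Other genes of the pathway were read against this. Of 160 further genes on the pathway lists, 121 had a probe set with 1 symbol and 82 were tested, of which 25 were lower and 0 higher (limma, 2 higher at an unadjusted p under 0.05). That is 30.5% lower, against 15.7% over all genes tested, with a median of -0.43 against -0.02. Fewer were called lower with any 1 array left out, fewest without wild-type replicate 2, and fewer over all genes as well. The 30.5% therefore holds for the fit of all 4 arrays only. With no filter on dim genes 16 of 121 tested were lower, against 8.42% of all genes in that fit. A filter at the 50th percentile kept the brighter 50% of the 12393 genes, of which 1212 were lower. It left 48 of the further pathway genes to test, of which 13 were lower. The lists share genes, so their counts do not add up.

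Interferon genes themselves were too dim to test. Of 18 ligand genes 9 were measured and none reached the filter. Ifnb1, the first interferon made in most cells, read 37.8 and 31.2 in Sftpc-Nmyc lungs against 36.5 and 36.9 in wild type. Ifng, the type II interferon, read 2.6 and 10.5 against 12.7 and 3.5. The groups overlapped for both. Ifnab, an interferon alpha gene of a family of close copies, read 14.9 and 13.1 against 52.4 and 30.1, with groups apart. All 3, named here after their values were seen, lay below the highest Bacillus control on every array.

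Among the receptor chains and kinases, all 8 tested had log2 fold changes below 0, with a median of -0.40, and 2 were lower. The share lower was 25%, against 15.7% over all genes tested. Jak1 read 301.2 and 345.4 in Sftpc-Nmyc lungs against 486.3 and 477.2 in wild type and fell by 0.58 ± 0.14 (limma adjusted p = 0.019). Il10rb, a chain of the receptors for interferon lambda and interleukin 10, fell by 0.54 ± 0.14 (0.025). Both log2 fold changes kept their direction with any 1 array left out (-0.68 to -0.47 for Jak1 and -0.60 to -0.48 for Il10rb), but Jak1 was not called without Sftpc-Nmyc replicate 1 (limma adjusted p = 0.092), wild-type replicate 1 (0.094) or wild-type replicate 2 (0.083), and Il10rb was not called whichever array was left out (0.071 to 0.12). Jak2 and Ifngr1 stood at -0.42 ± 0.18 and -0.39 ± 0.17 without passing (0.11 and 0.12). The type I receptor chains Ifnar1 and Ifnar2, described outside the naming rule because they start the pathway, stood at -0.18 ± 0.17 and -0.26 ± 0.16 (0.48 and 0.25).

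Negative regulators and sensors gave no calls with all arrays and the settings used throughout. Of 9 negative regulators 0 were called (limma, 1 at an unadjusted p under 0.05), with a median of -0.24. The list included Ptpn6, a phosphatase of blood cells, at -0.57 ± 0.34, and Cish, a SOCS family inhibitor, at -0.36 ± 0.15 (limma adjusted p = 0.25 and 0.11). The Ptpn6 value depended on the transgenic array left out: it was -1.10 without Sftpc-Nmyc replicate 1, where it was called (limma adjusted p = 0.027), and -0.018 without Sftpc-Nmyc replicate 2 (0.97). Of 9 tested nucleic acid sensors and adaptors 0 were called (limma, 1 lower and 1 higher at an unadjusted p under 0.05), with a median of -0.10. Ifih1, the MDA5 sensor of double-stranded RNA, stood at -0.56 ± 0.21 and Trim25, a ubiquitin ligase that activates the RIG-I sensor, at 0.36 ± 0.14 (limma adjusted p = 0.076 and 0.087), and Trim25 was called higher with median centring (0.45, 0.045).

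Among the relatives of the member transcription factors, some IRF genes were lower and no STAT gene was called. Among 6 tested IRF genes 2 were lower, or 33.3% against 15.7% over all genes tested. The median was 0.08, so the median and the calls differ in sign. Irf8, a factor of myeloid cells, read 78.5 and 103.4 in Sftpc-Nmyc lungs against 142.9 and 162.7 in wild type and fell by 0.72 ± 0.20. Irf1, a direct target of interferon gamma, fell by 0.58 ± 0.16 (limma adjusted p = 0.028 and 0.027). Irf8 was not called without Sftpc-Nmyc replicate 1 (limma adjusted p = 0.13) or either wild-type replicate (0.065 and 0.14), nor Irf1 without either Sftpc-Nmyc replicate (0.10 and 0.060) or wild-type replicate 2 (0.15). Irf5 and Irf2 stood at 0.15 ± 0.20 and 0.16 ± 0.27. Of 3 tested STAT genes 0 were called (limma, 2 lower at an unadjusted p under 0.05). Stat6, which carries interleukin 4 signals, stood at -0.45 ± 0.15 (limma adjusted p = 0.051) and Stat3 at -0.45 ± 0.19 (0.11), beside -0.44 ± 0.23 for the member Stat2. Under the 50th percentile filter Stat6 was called (0.040).

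The other type I interferon-stimulated genes that passed the test were all lower. Of 61 on the list 47 were measured and 30 tested, with 13 lower, 0 higher and a median of -0.53. That is 43.3% lower, against 15.7% over all genes tested, after the filter on dim genes. With no filter 9 of the 47 measured were lower, against 8.42% of all genes in that fit. Isg20, an exonuclease that degrades viral RNA, read 178.8 and 133.3 in Sftpc-Nmyc lungs against 482.8 and 412.3 in wild type. It fell by 1.51 ± 0.19 (limma adjusted p = 0.0013). Rtp4, a chaperone of receptors that also restrains viruses, fell by 1.48 ± 0.20. Ifi35, an interferon-induced leucine zipper protein, fell by 1.34 ± 0.21 and Tdrd7, a Tudor domain protein of RNA granules, fell by 1.21 ± 0.17. These 4 were called whichever array was left out. With any 1 array left out fewer were lower, on this list and over all genes. The list had 6 lower under the 50th percentile filter, beside 1212 genes lower in all. Rtp4 and Ifi35 were not tested under that filter. Mx1 and Oas1a, classic targets named after their values were seen, were too dim to test: Mx1 read 6.1 and 6.9 in Sftpc-Nmyc lungs against 3.5 and 16.9 in wild type, and Oas1a 11.8 and 37.6 against 25.9 and 124.

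In the enzyme chain that joins ISG15 to proteins, Uba7, the activating enzyme, read 58.8 and 80.2 in Sftpc-Nmyc lungs against 164.5 and 123.4 in wild type. It fell by 0.95 ± 0.22 (limma adjusted p = 0.015), a call that ended without Sftpc-Nmyc replicate 1 (-0.76, 0.070) or wild-type replicate 1 (-0.78, 0.092). Trim25, the other tested gene of this list, stood at 0.36 ± 0.14 (limma adjusted p = 0.087). So 1 of the 2 tested genes was lower and 0 higher, against 15.7% lower over all genes tested. Ube2l6, the conjugating enzyme, was under the filter.

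Among type I list genes, the response element core was about as frequent in those called as in those not called, and the gamma-activated site was more frequent in those called, neither difference being tested. The response element core stood in the windows of 4 of 11 genes called lower, 36.4%, and of 5 of 14 not called, 35.7%, against 3.8% of all tested genes with a window. The gamma-activated site stood in 5 of 11 called lower, 45.5%, and in 2 of 14 not called, 14.3%, against 8.18% of all tested genes. Among the members, Rsad2 was called with a match and Irf7 and Irf9 without one. Stat2, Ifit1 and Ifit3 each held at least 1 match and were not called.

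Interferon gamma response genes had 7 of 13 lower and 0 higher, with a median of -0.64. That is 53.8% lower, against 15.7% over all genes tested. Cd74, the chain that escorts MHC class II molecules, read 95.5 and 122.7 in Sftpc-Nmyc lungs against 315 and 701.8 in wild type and fell by 2.06 ± 0.33 (limma adjusted p = 0.0035). H2-Aa and H2-Eb1, class II chains, fell by 1.29 ± 0.31 and 0.93 ± 0.21 (0.017 and 0.014). For all 3 class II genes wild-type replicate 2 was the highest array, as for Rsad2. Gbp7, a guanylate-binding protein of the interferon-induced GTPases, fell by 0.77 ± 0.19 (0.019). H2-Aa was not called without Sftpc-Nmyc replicate 1 (limma adjusted p = 0.054), H2-Aa and H2-Eb1 not without wild-type replicate 2 (0.083 and 0.084), and Gbp7 whichever array was left out (0.062 to 0.079). Leaving out any 1 array gave fewer genes lower, both on this list and over all genes, and the list had fewest without wild-type replicate 2. Using no filter gave 3 lower of the 20 measured, against 8.42% of all genes in that fit. The 50th percentile filter gave 4, beside 1212 genes lower in all. The deposited scaling alone or no variance trend gave 8, beside 1404 and 1165 genes lower in all. The 50th percentile filter left H2-Aa and Gbp7 untested.

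MHC class I and antigen processing had 3 of 13 lower and 0 higher, with a median of -0.46. That is 23.1% lower, against 15.7% of all genes tested. Psmb8, an immunoproteasome subunit, read 51.9 and 43.8 in Sftpc-Nmyc lungs against 119.1 and 121 in wild type and fell by 1.20 ± 0.21 (limma adjusted p = 0.0047). Tap2, part of the peptide pump, fell by 0.97 ± 0.21 and H2-M3, a class Ib molecule, by 0.77 ± 0.22 (0.011 and 0.035). Over all genes fewer were lower with any 1 array left out than with all arrays. The list then had the fewest lower without wild-type replicate 2 and the most without Sftpc-Nmyc replicate 1. It had 0 lower under the 50th percentile filter, which left Psmb8, Tap2 and H2-M3 untested. With no filter it had 2 lower of the 13 measured, against 8.42% of all genes in that fit. It had 4 under the deposited scaling alone and 5 with probe sets averaged, beside 1404 and 1256 genes lower in all. Tap2 was not called without Sftpc-Nmyc replicate 2 (0.051) or wild-type replicate 2 (0.071), and H2-M3 whichever array was left out (0.067 to 0.13). Tap1, the partner of Tap2 in the pump, stood at -0.66 ± 0.22 (0.057), and was called under the deposited scaling alone (-0.70, 0.046) and without Sftpc-Nmyc replicate 1 (-0.87, 0.049).

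**Figure D4:**
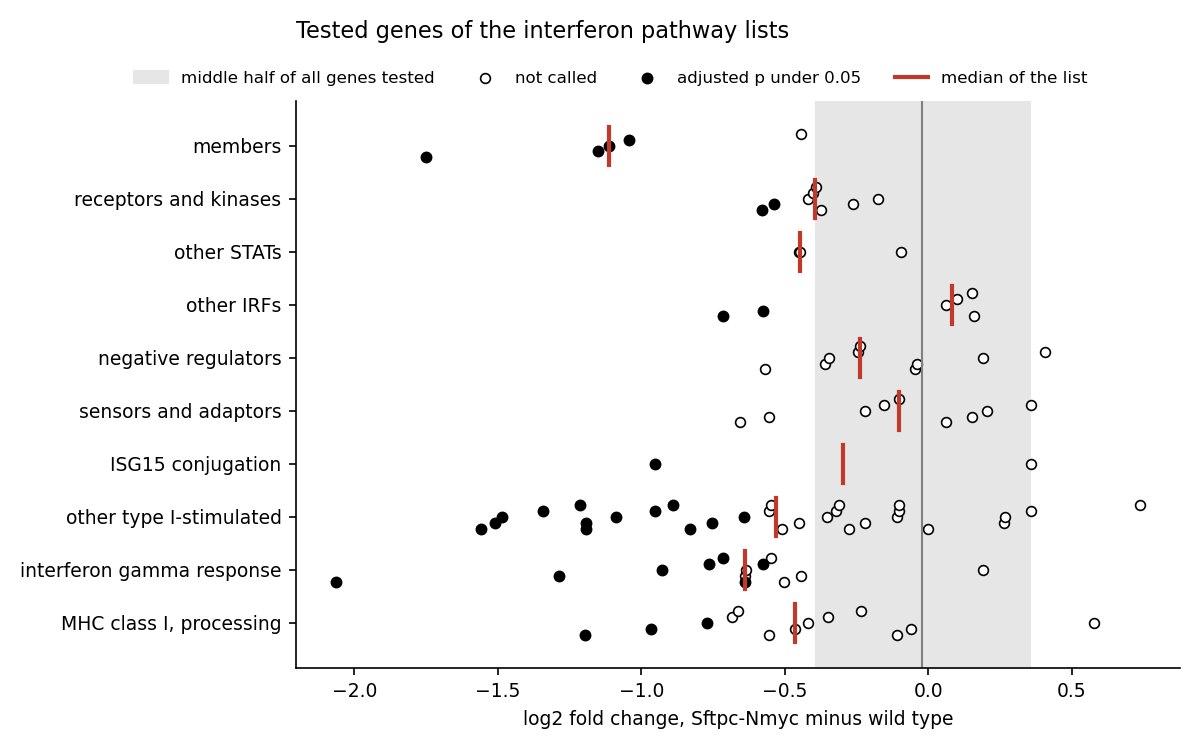
Log2 fold change, Sftpc-Nmyc minus wild type, of each tested gene on the interferon lists, filled where limma's adjusted p was under 0.05, with list medians as red bars. The grey band runs over the quartiles of all genes tested, -0.39 to 0.35; called genes lie to its left in the member, type I, interferon gamma and class I lists, while sensors and negative regulators hold open points only.

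Markers of macrophages, endothelium, fibroblasts and alveolar type II cells were also mostly lower. For the marker counts here and below, the shares over all genes tested were 15.7% called lower and 14.7% higher. Summed over 8 genes, the members had 393.5 and 404.5 in Sftpc-Nmyc lungs against 855.5 to 996.1 in wild type. Of 16 tested macrophage and monocyte markers 9 were lower and 0 higher, with a median of -0.88, and the 19 measured summed to 1882 to 2104 in Sftpc-Nmyc lungs against 5924 to 7392 in wild type. Lyz2, lysozyme, which type II cells also make, fell by 2.91 ± 0.17. It read 528.3 and 530.7 in Sftpc-Nmyc lungs against 3047 and 4360 in wild type. The larger part of the wild-type sums was thus Lyz2, so the difference between the sums largely follows this gene. Csf1r, the macrophage growth factor receptor, fell by 1.32 ± 0.14 and C1qa, a complement component, fell by 1.22 ± 0.18. Among the 7 not called were Cd68, Adgre1 and Cd14, at -0.19 ± 0.24, -0.37 ± 0.18 and -0.36 ± 0.17, named after their values were seen. All 12 endothelial markers were lower, with a median of -1.57 and sums of 2895 to 3007 against 7617 to 8857. Those with the largest moderated statistics were Esam at -1.82 ± 0.13, Cdh5 at -1.59 ± 0.13 and Tie1 at -1.77 ± 0.15. Of 9 fibroblast markers 7 were lower (median -0.94, sums of 8707 to 9173 against 15121 to 16218), with Postn at -1.94 ± 0.15, Col3a1 at -0.94 ± 0.10 and Col1a2 at -0.89 ± 0.11.

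Few lymphocyte and dendritic cell markers passed the filter on dim genes. Of 14 lymphocyte markers 12 were measured and only Thy1, which fibroblasts also express, was bright enough to test, at -1.13 ± 0.23, with sums of 214.7 to 251.1 in Sftpc-Nmyc lungs against 318 to 334.8 in wild type. Of 3 tested dendritic cell markers 0 were called (limma, 1 lower at an unadjusted p under 0.05), with Zbtb46, Itgax and Xcr1 at -0.90 ± 0.34, -0.62 ± 0.27 and -0.39 ± 0.27 and sums of 190.8 to 209.8 against 233.7 to 339.9. Of 7 neutrophil markers 3 were lower, S100a8, Ltf and Ngp at -1.14 ± 0.28, -1.11 ± 0.34 and -0.63 ± 0.20, with sums of 398.8 to 409.5 against 659 to 795.3. Alveolar type II markers were lower in 8 of 8 (median -3.02), with Slc34a2 at -3.90 ± 0.18, Cxcl15 at -4.13 ± 0.20 and Sftpb at -2.85 ± 0.17. General epithelial markers went the other way, with 6 of 9 higher and 0 lower (median 0.99, sums of 7129 to 7238 against 3991 to 4380), among them Epcam at 1.48 ± 0.12, Grhl2 at 1.17 ± 0.16 and Esrp1 at 1.36 ± 0.18. No list had a marker at 0 on all arrays. The part of these cell types in the lower interferon genes was not tested.

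**Figure D5:**
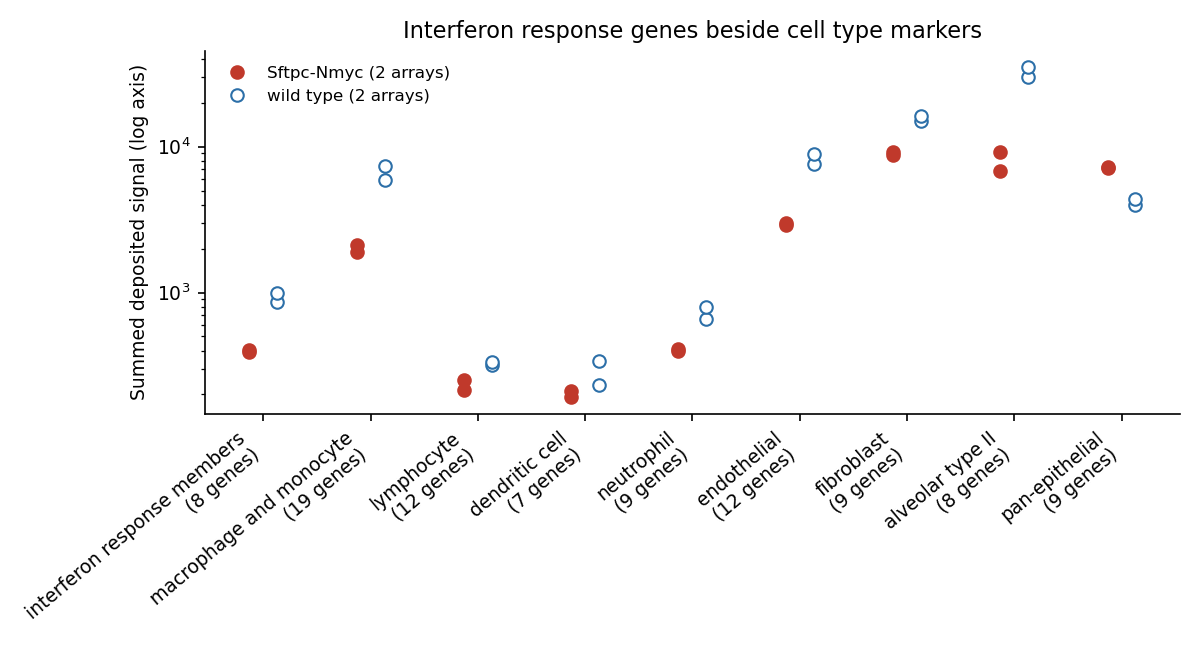
Summed deposited signal (log axis) of the interferon response members and of cell type marker lists on each array, with Sftpc-Nmyc as filled and wild type as open points and the number of genes summed below each name. Sftpc-Nmyc arrays lie below wild type for every list but the pan-epithelial one. The larger part of the wild-type macrophage sums is Lyz2, which type II cells also make. Heights of different lists cannot be compared, since probe sets differ in brightness.

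The genes whose 4 arrays followed the mean profile of the 5 tested members most closely were Phlda1, Sema7a, Psap, Ptger2 and Arap3, with root mean square differences of 0.005 to 0.030 on the log2 scale after each gene was centred on its own mean. Phlda1, a gene induced by growth signals, read 276.8 and 268.9 in Sftpc-Nmyc lungs against 565 and 601 in wild type, and Psap, the precursor of lysosomal saposins, 660.4 and 629.9 against 1276 and 1406. None is on the interferon lists. With 4 arrays in 2 groups, such likeness says little more than that these genes were lower by a similar amount.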

How the data were processed

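The authors deposited linear intensities for each probe set, and the software behind them is not given in the sources used here. In the values themselves each array has the same mean, 150.05, once the top and bottom 2% are left out. Labelling used total RNA, an RNeasy kit and an Affymetrix kit, per the labels' protocols. Detection calls were not used here. Names came from the platform annotation: 20380 had 1 symbol, 691 several and 1555 none, and 64 were controls. Identifiers of 20351 matched RefSeq (GRCm38.p6) and 0 symbols needed updating.

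Values under 1 were set to 1, 5 was added and the log2 values were quantile normalized across arrays, controls left out. The brightest probe set stood for each of 12393 genes, and genes below the 30th percentile of mean level (a normalized signal of 37.2) were left out, leaving 8675. The fit used lmFit and trended eBayes (limma 3.58.1, R 4.3.3), with group as the only term and Benjamini-Hochberg adjustment over all features, at a threshold of 0.05. Errors are limma standard errors unless marked SD. A second fit took all probe sets with 1 symbol, unfiltered, and gives the values and p-values of Ifit1, Ifit2, Ifit3 and of probe sets that do not stand for their gene. The code was tested on simulated data. Alternatives changed the offset, normalization, filter, probe set rule, variance trend and arrays. The number of arrays limits the precision.

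Members and lists were chosen with earlier results of these data known. Genes named are the members, up to 4 genes per pathway list and 3 per marker list with the largest moderated statistic, called genes against a list's median (up to 2), Mycn, sex-linked genes and the 5 nearest profiles; others are marked.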

Additional observations from a re-analysis of the deposited data

How the results depend on the processing

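The 4 members called lower were called with an offset of 1 or 20, the deposited scaling alone, median centring, no filter, probe sets averaged, no variance trend and the replicate block. With the filter at the 50th percentile, 2 members were tested and both were called. Leaving out each array in turn gave 3 to 4 members lower, 0 higher, 8 to 18 further pathway genes lower and 0 to 1 higher, and 1379 to 1906 genes called in all, against 2636 with all arrays. The lone array of a group is then assumed to vary like the other group. Further pathway genes called lower numbered 16 of 121 tested with no filter, against 8.42% of all genes. Under the 50th percentile filter they numbered 13 of 48, against 1212 of the brighter 50% of the 12393 genes. Counts of 1 higher were Trim25 with median centring (0.45, limma adjusted p = 0.045), Erap1 with probe sets averaged or no variance trend, Ptpn2 without Sftpc-Nmyc replicate 2 (0.95, 0.016) and Oasl1 without wild-type replicate 2 (1.72, 0.025), all named after their values were seen. Over all probe sets, limma called 2638 in all, 0 without any 1 array (4372 to 4846 at an unadjusted p under 0.05) and 1557 with the replicate block.

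Values that changed sign were all uncalled: Irf2 without Sftpc-Nmyc replicate 2 (-0.06) or wild-type replicate 2 (-0.10), the Ifit2 and Ifit3 probe sets under the deposited scaling alone (-0.049 and -0.031), and 3 probe sets when arrays were left out in turn. These were Ifit2 (-0.051 without Sftpc-Nmyc replicate 1 to 0.16), Ifit3 (-0.10 without Sftpc-Nmyc replicate 2 to 0.25) and Stat2 probe set 1421911_at (-1.40 to 0.42 without wild-type replicate 1). The cause was not tested. The groups share replicate numbers, but nothing in the labels pairs them, and replicate differences correlated at r = -0.04 between the groups over 8675 genes. With the replicate block 2218 genes were called, the same 4 members and 21 further pathway genes lower, and 2 in place of 5 member probe sets. Signals near the Bacillus controls limit what can be read from Stat2 and the IFIT genes. Both transgenic readings also lay below the highest Bacillus control for Irf7, Irf9, Usp18, Rtp4, Ifi35, Psmb8, H2-Aa, Gbp7, Tap2, H2-M3, Thy1 and Ltf. The sizes of their differences are limited by this too.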
